A study of Mus musculus with 35 samples.

Results

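Pvalb and Btbd11 interneurons of the mouse hippocampus were studied as single nuclei. A nucleus was a member where at least 1000 genes were detected, the UMIs (unique molecular identifiers, each marking an RNA molecule) of Gad1 and Gad2 came to 4 or more, and either Btbd11 reached 10 UMIs or Pvalb reached 1. Members also had at most 2 UMIs of Sst, 1 of Vip, 4 of Reln, 2 of Slc17a7 and 2 of Mog and Mag together. Of 144991 barcodes in 14 libraries, 911 met this rule. They made up 0.742% of the 122747 barcodes with 1000 or more genes (95% Wilson interval 0.696% to 0.792%). They were 15.4% (14.5% to 16.4%) of the 5899 GABA nuclei, defined by the same limits on Gad1 and Gad2, Slc17a7, Mog and Mag. These intervals cover counting error only.

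Parvalbumin interneurons are inhibitory neurons that arise in the medial ganglionic eminence and release GABA onto the soma, proximal dendrites or axon initial segment of pyramidal cells. They fire fast trains of brief spikes with the help of Kv3 potassium channels, rely on strong mitochondrial respiration, are often wrapped in perineuronal nets and pace hippocampal rhythms. Parvalbumin, the product of Pvalb, buffers calcium, and Btbd11 encodes a protein found at excitatory synapses onto these cells.

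The libraries came from frozen hippocampus of C57BL/6 mice aged 9 months and were made with droplet 3′ chemistry. The groups were WT (n = 3), PS19 (n = 3), CLEAR mutant (here CLEAR, n = 4) and CLEAR mutant crossed with PS19 (here CLEAR_PS19, n = 4), with 1 female and otherwise males in each. PS19 animals express a mutant form of human tau from a transgene under the promoter of the mouse prion protein gene Prnp, so tau is made in many neuron types. In CLEAR mice, as far as the design is known, the CLEAR element of Atp6v1h is mutated; such elements are bound by TFEB, a transcription factor. This gene encodes subunit H of the V-ATPase, the proton pump that acidifies lysosomes. Bulk RNA-seq of hippocampus from separate WT and PS19 samples at 4 months (6 and 6) and 9 months (5 and 4) was used only to look up genes of these cells. The labels number the samples as replicates without saying that each was a separate animal, so p-values measure the spread between these samples.

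Each library held 29 to 96 members, with the fewest in CLEAR_PS19 replicate 4 and the most in PS19 replicate 1. Their summed UMIs ran from 323045 to 1819537 per library, in those same libraries. Correlations of the libraries in excitatory nuclei gave 3 sets that the labels do not name. The first set mixed all genotypes, the second was the 4 females, and the third held only CLEAR replicates 1 and 2 and CLEAR_PS19 replicates 1 and 2. Set and CLEAR genotype therefore overlap in part, and values without the third set are given where they change a result. Although 5240 barcode sequences of all 144991 occurred in more than 1 library, 0 member barcodes were shared between the members of different libraries. Scrublet scores resemblance to simulated doublets. The barcodes with the highest scores in each library were called doublets, their number set beforehand by an assumed rate of 0.8% per 1000 nuclei. This took in 8.88% of barcodes with 300 or more genes. Among members 37 (4.06%) were called doublets, and they were kept.

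Pvalb and Btbd11 chose the members, so their levels in members are given as a description and no test of them is used. Of the members, 574 had Pvalb, 644 reached 10 UMIs of Btbd11 and 307 met both limits. Pvalb alone brought in 267 members, and Btbd11 alone 337. Pvalb was sparse, with 347 members at a single UMI and at most 6 UMIs in any nucleus, whereas Btbd11 had a median of 12 UMIs and a maximum of 50. The median member held 16045 UMIs (2814 to 59780) and 4581 genes. Sst nuclei held 13111, Vip nuclei 8747 and Reln nuclei 11285 at the median, so a limit on raw UMIs favours deeper nuclei.

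Nuclei at the edge of the Btbd11 limit were of mixed kind. In UMI counts scaled to the total of all genes (CPM), summed over nuclei, the 57 members with exactly 10 Btbd11 UMIs and no Pvalb carried 5435 CPM of Adarb2, a gene of interneurons from the caudal ganglionic eminence (CGE). The 56 nuclei just outside, with 9 Btbd11 UMIs, carried 6993. Lhx6, the transcription factor that marks the medial eminence, stood at 28.3 CPM just inside and 16.2 just outside. Across all members, those with Pvalb had 152 CPM of Adarb2 and 17.4 of the cannabinoid receptor gene Cnr1. The members chosen by Btbd11 alone had 2464 and 121. Sox6 (422 and 454 CPM), Satb1 (241 and 265) and Lhx6 (43.5 and 37.3) were close in these 2 kinds of member.

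By the rule, Gad1 was detected in 99.0% of members, Gad2 in 90.2%, Btbd11 in 97.6% and Pvalb in 63.0%, which says nothing of the label. Among genes the rule did not use, the neuregulin receptor gene Erbb4 was found in 99.6%, the Kv3.1 channel gene Kcnc1 in 97.5%, Nxph1 in 97.1% and Cntnap4 in 97.0%. The transcription factor genes Sox6 and Satb1 were in 85.7% and 85.6%, and Lhx6 in 47.8%. As a floor for free RNA, Lhx6 was in 0.176% of excitatory and 0.126% of oligodendrocyte nuclei, and Pvalb in 0.584% and 0.408% (median depths 12687.5 and 2300 UMIs). Syt2, the fast calcium sensor of vesicle release, was in 58.2% of members against 4.37%, 4.10% and 3.49% of Sst, Vip and Reln nuclei. Of the markers of other interneurons, Elfn1 (11.97% of members), Npy (9.77%) and Htr3a (3.18%) were above their shares in excitatory nuclei (3.61%, 2.15% and 0.135%) and oligodendrocyte nuclei (0.386%, 2.23% and 0.065%). Adarb2 (17.3%), Cnr1 (15.3%), Prox1 (10.1%), Lamp5 (5.38%) and Ndnf (1.32%) were below their shares in excitatory nuclei (40.2%, 39.7%, 26.6%, 9.53% and 1.71%). Excitatory nuclei may express these genes themselves, so detection alone does not decide whether members express them. Chrna2, which marks a class of Sst cells, was found in 0 of 911. The myelin gene Mbp was in 19.2%, below its 41.6% of excitatory nuclei.

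**Figure D1:**
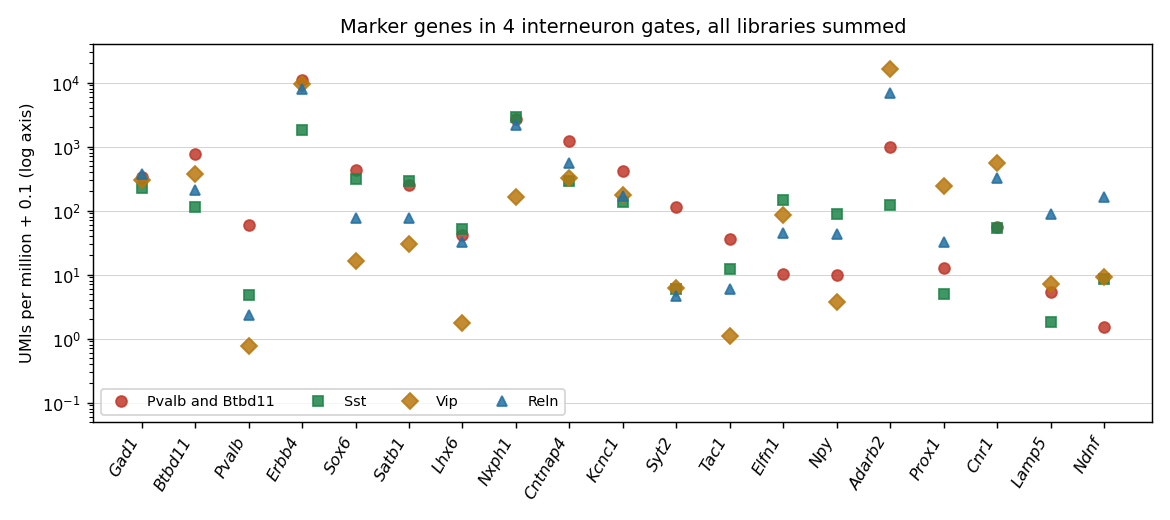
Summed level of 19 genes in the 4 interneuron gates, as CPM plus 0.1 on a log axis, with all 14 libraries added together. Members stand highest for Syt2 (58.2% of nuclei with a UMI) and low beside the Vip gate for Adarb2 and Cnr1 (17.3% and 15.3% of members with a UMI).

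Clustering the 911 nuclei gave 9 clusters, described here without a test because the clusters were made from these genes. The largest (210 nuclei) had high Eya1 (144 CPM), Sox6 (683) and Btbd11 (1067). The next (196 nuclei) was led by the cadherin gene Cdh7 (271 CPM). A cluster of 128 nuclei carried Pde11a (547 CPM), Gfra1 and Syt2 (174 CPM), with Pvalb in 78.1% of nuclei. Pde11a was higher still, at 886 CPM, in the cluster of 53 nuclei described below. Another, of 110, carried Foxp2, Crhbp (173 CPM) and Cort (70.6 CPM), and 65 nuclei were led by Corin (186 CPM). A small cluster of 53 nuclei (5.82% of members) had Pvalb in 94.3% of nuclei but a median of only 4 Btbd11 UMIs. It stood highest for Unc5b (114 CPM), Ntf3 (63.9), Pthlh (29.3) and Vipr2 (19.5), which are 4 of the 5 markers listed for axo-axonic cells, the interneurons that contact axon initial segments. This cluster was axo-axonic-like.

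Of the remaining 3 clusters, 2 were led by genes of other classes. A cluster of 58 nuclei (6.37%) carried 13570 CPM of Adarb2, 667 of Cnr1 and 3.58 of Lhx6, with Pvalb in 24.1% of its nuclei, so its leading genes went against the label. A cluster of 42 nuclei (4.61%) was led by the oligodendrocyte genes St18, Prr5l, Mbp (98.3 CPM) and Trf, with Pvalb in 73.8%. The cluster of 49 nuclei led by Tafa1 (328 CPM) was the deepest, at a median of 24448 UMIs. Results below that lose or gain a call without the 100 nuclei of the 2 clusters led by other classes' genes are given both ways, and 811 members remained then.

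The share of members did not differ between genotypes beyond the spread of the libraries. Of nuclei with 1000 or more genes, members made up 0.816% ± 0.153 in WT (SD, n = 3), 0.786% ± 0.138 in PS19 (n = 3), 0.689% ± 0.180 among CLEAR (n = 4) and 0.707% ± 0.245 among CLEAR_PS19 libraries (n = 4). Within CLEAR_PS19 alone the 4 libraries ran from 0.448% to 1.03%, a range that covers every other group. The tau transgene, averaged over both CLEAR backgrounds, came with a difference of -0.0062 percentage points (exact permutation test within backgrounds, two-sided p = 0.944, adjusted over 4 tests 0.944). The CLEAR mutation came with -0.103 points (exact permutation p = 0.300, adjusted 0.601). Permuted within library sets, the CLEAR difference was 0.0018 points (exact permutation p = 0.972, adjusted 0.972), so its sign turned. Leaving out 1 library gave -0.0606 to 0.0369 points for tau, so that sign was not steady, and -0.157 to -0.0598 for CLEAR.

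As shares of GABA nuclei the groups held 17.99% ± 3.81, 15.3% ± 2.35, 14.5% ± 3.24 and 14.5% ± 3.89, in the same order. The exact permutation tests gave p = 0.476 for tau (-1.30 points, adjusted 0.634) and p = 0.254 for CLEAR (-2.16 points, adjusted 0.601), which within library sets was -0.915 points (exact permutation p = 0.667). Leaving out 1 library gave -2.39 to -0.486 points for tau and -3.25 to -1.35 for CLEAR, and with Pvalb members only both were above 0 (0.189 and 0.0791). Depth differed between libraries: the median member of a library held from 10673 UMIs (CLEAR_PS19 replicate 4) to 21375.5 (WT replicate 2). After each nucleus was thinned to 4000 UMIs, few met the rule, and the shares were 0.0438%, 0.0652%, 0.0948% and 0.0768% in WT, PS19, CLEAR and CLEAR_PS19. The CLEAR difference then had the opposite sign (0.0313 points, exact permutation p = 0.0498, adjusted 0.199). Thinning left out 6485, 10656, 10114 and 14055 nuclei in these groups that held under 4000 UMIs, so depth and denominator changed together.

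**Figure D2:**
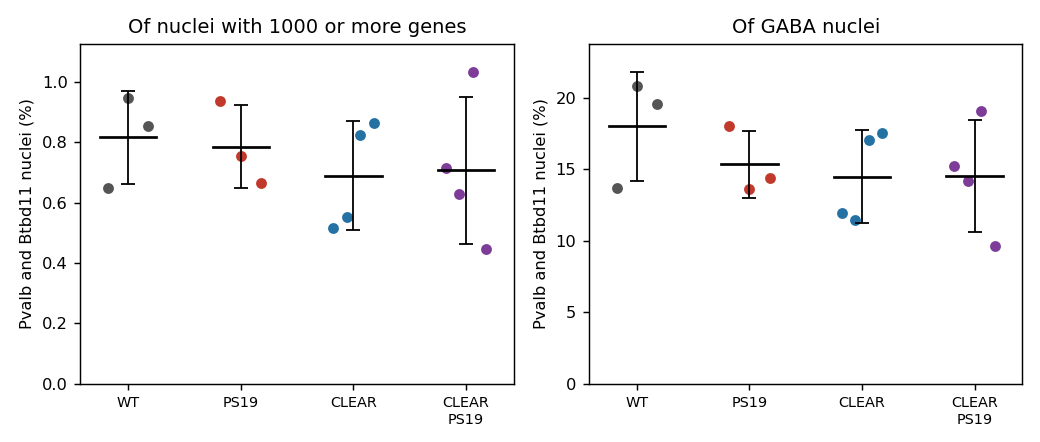
Members as a percentage of nuclei with 1000 or more genes (left) and of GABA nuclei (right) in 4 genotypes. Each dot is a library, the line is the group mean and the bar 1 SD; the groups overlap, for example 0.648% to 0.948% in WT against 0.448% to 1.03% in CLEAR_PS19.

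Which genes separate these cells from other hippocampal interneurons was asked by comparing members with 801 Sst, 293 Vip and 1405 Reln nuclei of the same libraries. Counts were summed per library and type, and the 10 genes of the rule were left out. Calls needed an edgeR adjusted p under 0.05 and a fold of 2 or more. All 4 types were gated on these same nuclei, so a gene that travels with a gating gene had to differ, and the values are given as a description. Against Sst nuclei, 494 genes were higher and 634 lower in members, which is 9.44% of 11949 tested (13 libraries). Against Vip nuclei, 637 were higher and 730 lower, 15.3% of 8953 (7 libraries with 20 or more nuclei of each). Against Reln nuclei, 634 were higher and 797 lower, 11.8% of 12162 (14 libraries).

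Sst interneurons share the medial origin, and 4 genes of that origin differed by less than 2-fold. Lhx6 stood at 44.2 ± 11.4 CPM in members and 48.6 ± 11.7 in Sst nuclei (mean ± SD over 13 libraries), and Nxph1 at 2800 ± 415 and 2924 ± 516. Sox6 and Satb1 differed by 0.49 and -0.19 on the log2 scale, under the 2-fold limit. Of the 18 tested genes of the fast-spiking and medial eminence list, 7 were higher (Syt2, Erbb4, Cntnap4, Tac1, Nefh, Mef2c and Kcnc1) and 1 was lower (Eya1), with a median difference of 0.51 against 0.01 over all genes. Syt2 was 117 ± 18.7 against 5.75 ± 3.48 CPM, a log2 difference of 4.297 (SE 0.133), higher in 13 of 13 libraries. Erbb4, through which these cells receive neuregulin signals, was 11300 ± 1240 against 1657 ± 663.

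Other genes much higher in members than in Sst nuclei were Pde11a (184 against 2.97 CPM) and Pde5a (101 against 5.05), both phosphodiesterases, Cemip (340 against 24.5), which encodes a hyaluronan-degrading protein, Zbtb7c (67.2 against 2.83), Fras1 (91.8 against 5.12) and the noncoding Gm34623 (73.4 against 4.24). Pde11a was high mainly in the clusters of 128 and 53 nuclei (547 and 886 CPM summed over nuclei, against 7.72 to 83.1 in the other clusters). The transcript 4930447N08Rik (139 against 9.47) overlaps Pde5a, so its reads are uncertain. In the other direction, the laminin gene Lama4 was at 0.276 CPM in members and 59.3 in Sst nuclei. Elfn1, which shapes the excitatory input of Sst cells, was 10.7 ± 4.02 against 156 ± 42.0, a log2 difference of -3.84 (SE 0.112), with the members lower in every library. Man1a (20.7 against 403), Rgs6 (23.4 against 334), Adamtsl1 (19.8 against 260), Gm10475 (1.18 against 64.9), Gm28175 (8.88 against 213) and Gm49678 (9.43 against 147) were also lower, as was the neuropeptide gene Npy (9.97 against 75.5). Adarb2 was higher in members than in Sst nuclei (1031 ± 569 against 170 ± 295 CPM), the CGE gene that led 1 cluster of members.

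Against Vip interneurons, which come from the caudal eminence, the factors of medial origin stood apart. Sox6 was 450 against 17.8 CPM, Lhx6 44.2 against 2.01, Nxph1 2727 against 216 and Satb1 272 against 33.9, each higher in 7 of 7 libraries. In all, 14 of the 19 genes of the fast-spiking and medial eminence list were higher and 1 (Pthlh) was lower, with a median of 1.90 against -0.03 over all genes. The CGE list ran the other way, with 9 of 9 tested genes lower in members. Adarb2 was 750 ± 549 against 16130 ± 2990 CPM, Prox1, a CGE transcription factor, 7.85 against 234, and Cnr1 52.5 against 615. The neuropeptide genes Tac2 (0.633 against 56.7) and Penk (1.14 against 71.6), and Fbln2 (2.88 against 133), Gm39185 (1.37 against 79.5) and Prox1os (1.66 against 73.2) were lower too. Moxd1 (102 against 0.964), Mypn (61.1 against 0.522), Phldb2 (72.3 against 1.04), Gm28501 (160 against 4.08), Sox5os4 (220 against 5.26), Tll1 (389 against 10.4) and Agbl1 (199 against 5.34) were higher, and Gm34623 had 62.3 CPM in members and 0 UMIs in Vip nuclei.

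Reln nuclei without Sst include neurogliaform and ivy cells, and genes known from those cells were low in members. All 6 tested genes of that list were lower, among them Ndnf (1.22 against 161 CPM), the stem cell factor receptor gene Kit (2.36 against 121) and Lamp5 (4.97 against 89.9). Cacna2d1, a calcium channel subunit gene, was 39.2 ± 30.8 against 1187 ± 165, and Hcrtr2 (4.99 against 147), Pld5 (10.9 against 248), Pdlim5 (2.40 against 60.5), Gm10475 (1.10 against 121) and Vcan (6.98 against 145) were lower as well. Gm10475 lies antisense within Reln, a gene of the rule, so its difference is part of the choice of nuclei here and against Sst nuclei. Higher in members were Syt2 (116 ± 18.6 against 4.39 ± 3.07 CPM), the guidance gene Slit2 (536 ± 69.3 against 24.0 ± 12.9), Gfra1 (153 against 6.53), Agbl1 (217 against 8.50), Phldb2 (74.0 against 2.92), Mypn (56.1 against 2.86), Phlda1 (50.8 against 2.69) and Sox5os4 (230 against 18.2). Of 18 tested genes of the fast-spiking and medial eminence list, 10 were higher and 0 lower, with a median of 1.22. Lhx6 differed by 0.37 on the log2 scale from Reln nuclei, which is under 2-fold.

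Among ion channel genes behind fast spiking, Kcnc1 and Kcna1 were higher in members than in each of the 3 other types. Of the tested genes of that list, 6 of 18 were higher and 1 lower against Sst nuclei, 11 of 18 and 1 against Vip nuclei, and 6 of 19 and 2 against Reln nuclei, where 9.44%, 15.3% and 11.8% of all genes were called. Kcnc1 stood at 434 ± 43.9 CPM against 133 ± 11.6 in Sst nuclei, a log2 difference of 1.70 (SE 0.0595). It was 446 ± 37.2 against 185 ± 27.5 in Vip nuclei, and 434 ± 44.3 against 168 ± 18.3 in Reln nuclei. Kcna1, which encodes an axonal Kv1 channel, was 147 against 48.5, 152 against 26.2 and 150 against 48.7. Kcnd3, which encodes an A-type channel, was lower in each comparison (105 against 403, 93.7 against 420 and 103 against 451 CPM).

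Receptor genes were called in both directions, where 9.44%, 15.3% and 11.8% of all genes were called against Sst, Vip and Reln nuclei. Of the tested GABA synapse genes, 5 of 21 were higher and 2 lower than in Sst nuclei, 3 of 20 and 2 against Vip nuclei, and 1 of 21 and 2 against Reln nuclei, the last close to the 11.8% called over all genes. Gabrd, which encodes the delta subunit of extrasynaptic GABA-A receptors, was 39.0 ± 10.2 CPM against 4.05 ± 3.29 in Sst nuclei, 43.3 against 1.41 in Vip nuclei and 40.5 against 19.4 in Reln nuclei. Gabrg3 was 2939 ± 482 against 581 ± 195 in Sst nuclei. Gabra2 was lower in members in all 3 comparisons (94.3 against 213, 86.9 against 259 and 94.2 against 189). Of the 22 tested glutamate receptor genes, 0 were higher and 9 lower than in Sst nuclei, such as Grin3a (66.1 against 644) and Grm8 (38.5 against 387). Against Vip nuclei 4 of 21 were higher and 9 lower, and against Reln nuclei 1 of 22 was higher and 6 lower. The AMPA receptor gene Gria3 was higher than in Vip nuclei (1251 ± 96.4 against 136 ± 38.3) and in Reln nuclei (1219 against 468).

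Perineuronal net genes went in both directions. Of those tested, 4 of 8 were higher and 1 lower than in Sst nuclei, 3 of 6 and 1 against Vip nuclei, and 3 of 9 and 4 against Reln nuclei, where the median was -0.81 (9.44%, 15.3% and 11.8% of all genes were called). Acan, which encodes the net proteoglycan aggrecan, was 14.6 ± 4.21 CPM against 1.28 ± 1.05 in Sst nuclei and 15.7 against 0.619 in Reln nuclei. Bcan, for brevican, was 94.6 ± 29.4 against 20.1 ± 5.67, 103 against 13.2 and 93.8 against 11.7 in Sst, Vip and Reln nuclei. Of the mitochondrial respiration genes, 1 of 22, 3 of 21 and 2 of 22 were higher than in Sst, Vip and Reln nuclei and 0 lower, and the share called either way was under that over all genes each time. Ppargc1a, which encodes a driver of mitochondrial biogenesis, was 303 ± 27.7 against 65.6 ± 14.7 in Vip and 296 ± 35.8 against 75.9 ± 16.3 in Reln nuclei. It was 292 against 150 in Sst nuclei, a log2 difference of 0.97 and just under the 2-fold limit.

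Members also held more RNA of TFEB than Sst and Reln nuclei, and more of its relative MITF than all 3 other types. Both factors bind CLEAR elements. Tfeb was 13.4 ± 4.40 CPM against 5.80 ± 3.65 in Sst nuclei (log2 1.31, SE 0.231, higher in 13 of 13 libraries) and 13.3 ± 4.28 against 2.98 ± 2.61 in Reln nuclei (log2 2.10, SE 0.288, 14 of 14). Mitf was 214 ± 22.3 against 65.8 ± 12.8 in Sst nuclei, 214 against 22.1 in Vip nuclei and 216 against 54.6 in Reln nuclei. In the wider list of lysosomal and TFEB genes, the only genes called higher were these 2 factors. The counts were 2 of 32 higher and 0 lower than in Sst nuclei, 1 of 26 and 1 against Vip nuclei, and 2 of 33 and 1 against Reln nuclei, with medians of 0.09, -0.16 and -0.06, where 9.44%, 15.3% and 11.8% of all genes were called. V-ATPase genes had 0 calls in each of the 3 comparisons, with medians of 0.03, 0.12 and 0.13.

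Genotype comparisons inside the members used counts summed per library, 10854 genes and edgeR's quasi-likelihood test with sex as a covariate. Few genes passed an adjusted p of 0.05. PS19 against WT gave 2 genes (0.0184% of those tested) and CLEAR_PS19 against CLEAR 4 (0.0369%). The tau effect averaged over both backgrounds gave 3 (0.0276%), and the CLEAR effect averaged over both tau backgrounds gave 1 (0.00921%). Same-numbered libraries deviated together between the tau groups. They also shared sex and library set, and whether the number itself paired them was not tested. With the replicate number as a block PS19 against WT gave 1 and the averaged tau effect 9. CLEAR_PS19 against PS19 and the interaction of both changes gave 1 each (0.00921% and 0.00921%). CLEAR against WT gave 0 (0%), with 1 gene called by DESeq2. At an unadjusted p under 0.05 it had 508 genes, under the 543 expected by chance alone. PS19 against WT (483), CLEAR_PS19 against CLEAR (396) and the interaction (404) were also under that number. The averaged CLEAR effect (794) and CLEAR_PS19 against PS19 (671) were over it. Without the third library set these had 420 and 397 such genes, and the part of the set in the excess was not tested. The median log2 change over all genes was 0.0001 for tau and 0.0036 for CLEAR.

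The tau call with the smallest adjusted p was a noncoding gene that was all but absent without the transgene. Gm43049, a lincRNA of unknown role at chr3:140692038-140760704 (minus strand; all positions on GRCm38), had 0, 1 and 0 UMIs in the 3 WT libraries and 174, 79 and 87 in PS19. It had 1, 0, 0 and 0 in CLEAR and 93, 98, 105 and 30 in CLEAR_PS19. Every library with the transgene thus stood far above every library without it. In CPM the PS19 libraries had 95.3, 71.7 and 117, and the CLEAR_PS19 libraries 68.8, 79.5, 64.6 and 99.2. The group counts gave a ratio of 344 for PS19 over WT (95% counting interval 61.4 to 13633) and 278 for CLEAR_PS19 over CLEAR (49.5 to 11013). A UMI of this gene was seen in 58.6% of PS19 and 51.6% of CLEAR_PS19 members, against 0.503% and 0.450% without the transgene. The fitted tau change was 7.81 (SE 0.310, edgeR adjusted p = 2.81e-13). Over all barcodes of the libraries, whatever their cell type, Gm43049 stood at 70.6 to 132 CPM with the transgene and 0 to 0.133 without it. The pattern was thus not particular to the members.

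A second lincRNA on the same strand, Gm32754 at chr3:140904998-140917459, followed the same pattern at lower counts. It had 11, 12 and 18 UMIs in PS19 and 9, 5, 7 and 5 in CLEAR_PS19, and 0 in all 7 libraries without the transgene. Over all barcodes Gm32754 likewise stood at 7.46 to 23.2 CPM with the transgene and 0 to 0.0297 without it. In the members the difference was as follows. Against a floor of 3 counts over the group this was at least 13.8-fold higher in PS19 than in WT and at least 7.39-fold higher in CLEAR_PS19 than in CLEAR. The averaged tau effect passed (edgeR adjusted p = 0.000418), as did PS19 against WT (0.0120). CLEAR_PS19 against CLEAR had an adjusted p of 0.0473 and lost its call when any 1 of the 14 libraries was left out (0.0536 to 0.642). With the replicate block Gm32754 lost both calls (0.063 for PS19 against WT and 0.333 for CLEAR_PS19 against CLEAR). PS19 against WT also lost it without WT replicate 2 (0.0696) or 3 (0.188) or PS19 replicate 2 (0.0655) or 3 (0.117), and with no sex covariate (0.231), and it was not among the calls with Pvalb members only or in males only.

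Prnp, whose promoter drives the transgene, had higher counts with it. Whether transcripts of the transgene can be counted under Prnp is not given in the sources used here. Prnp lies at chr2:131909928-131938429 and overlaps Prn on the same strand. It stood at 29.1, 38.2 and 21.8 CPM in WT libraries, 48.2, 70.8 and 37.7 in PS19 libraries, 35.8, 30.9, 20.1 and 22.3 in CLEAR libraries and 82.8, 69.8, 73.2 and 46.3 in CLEAR_PS19 libraries. All CLEAR_PS19 libraries lay above all CLEAR libraries, whereas the lowest PS19 library fell just under the highest WT library. The averaged tau change was 1.07 on the log2 scale (SE 0.146, edgeR adjusted p = 0.00117), from 0.00105 to 0.00984 when 1 library was left out. It was 1.35 (SE 0.196, adjusted p = 0.00288) on the CLEAR background, and 0.79 (SE 0.215, adjusted p = 0.686) for PS19 against WT. Without the third library set the change on the CLEAR background was 1.499 with an adjusted p of 0.138. In Sst, Vip and Reln nuclei together the averaged change was 1.18 (adjusted p = 3.16e-07), and the members' change differed from it by -0.09.

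Mouse Mapt, the tau gene itself, showed no call. It stood at 258, 296 and 265 CPM in WT libraries, 264, 322 and 253 in PS19 libraries, 236, 227, 311 and 306 in CLEAR libraries and 254, 276, 268 and 255 in CLEAR_PS19 libraries, so all groups overlapped. The averaged tau difference was -0.003 (SE 0.0977, edgeR adjusted p = 1). Whether reads of the human transgene can be counted under mouse Mapt is not given in the sources used here.

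**Figure D3:**
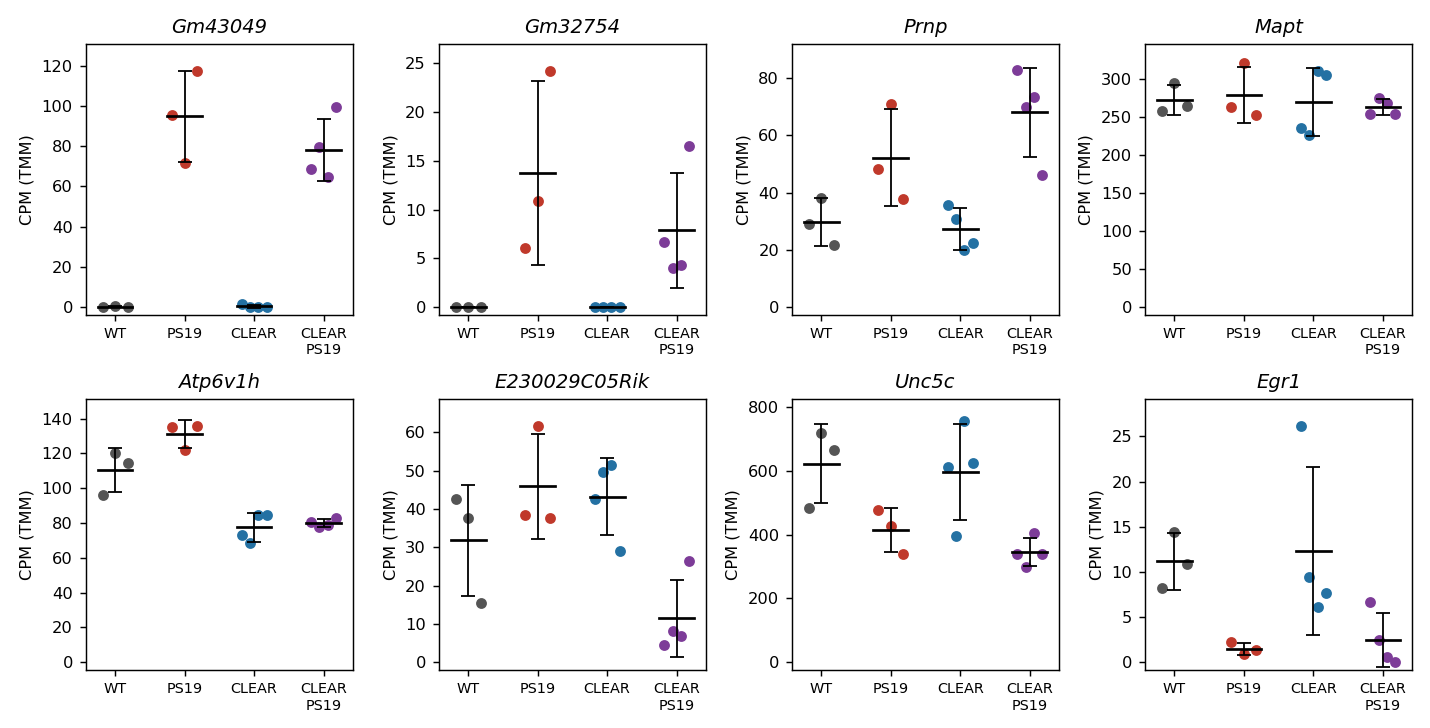
CPM per library for 8 named genes in member nuclei of the 4 genotypes; each dot is a library and the lines are mean ± SD. Gm43049 and Gm32754 are at or near 0 without the transgene, and Atp6v1h is lower in all 8 CLEAR and CLEAR_PS19 libraries (68.4 to 84.8 CPM) than in the other 6 (96.2 to 136).

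Neighbours of these lincRNAs were examined because both sit on chromosome 3. Within 2 Mb, 8 genes were tested, of which 3 were higher and 5 lower with the transgene, and 2 were called (the lincRNAs). Unc5c, a receptor for the guidance cue netrin at chr3:141465216-141834924, was at 484, 720 and 665 CPM in WT and 476, 428 and 341 in PS19. It was at 613, 395, 755 and 624 in CLEAR and 341, 298, 405 and 341 in CLEAR_PS19. PS19 libraries lay below WT libraries, while the highest CLEAR_PS19 library slightly exceeded the lowest CLEAR library. Unc5c was lower with the transgene in 7 of 7 same-numbered pairs. The averaged tau difference of -0.69 (SE 0.132) missed the threshold (edgeR adjusted p = 0.0771). It passed without WT replicate 1 (0.0227), without CLEAR replicate 2 (0.00299), with DESeq2 (0.00837), with the replicate block (0.0175) and without the third library set (0.0116). In the other interneurons Unc5c fell by 0.998 on the log2 scale (SE 0.116, adjusted p = 9.90e-05), and the members' effect differed from theirs by 0.35 (SE 0.127, adjusted p = 0.980).

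Whether the tau effect in members differed from that in Sst, Vip and Reln nuclei was tested for 12991 genes, and 1 passed (0.0077%). This gene was Bmpr1b, a receptor of bone morphogenetic proteins at chr3:141837136-142169425, beside Unc5c. It had 0, 2 and 1 UMIs in WT members, 6, 2 and 3 in PS19 members, 0, 0, 2 and 0 in CLEAR members and 1, 1, 10 and 7 in CLEAR_PS19 members. These counts are too low for the members' own fit, so the gene entered this test through its counts in the other interneurons. Its difference is given as a description. In the other interneurons the tau difference was -2.53 (SE 0.501, adjusted p = 0.0658), and the difference of effects was 4.80 (SE 0.776, edgeR adjusted p = 0.0206). The count of calls was 0 without the doublets, without the clusters led by other classes' genes, and without any of WT replicate 1 or 3, PS19 replicate 1 or 3, CLEAR replicate 3 and CLEAR_PS19 replicate 3 or 4.

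Some genes with the smallest p-values are known from glia. Apoe, the lipid carrier made mainly by astrocytes and reactive microglia, was at 21.8, 27.4 and 30.9 CPM in WT, 77.8, 75.4 and 45.8 in PS19, with means of 21.7 ± 5.43 over the 4 CLEAR and 28.8 ± 12.2 over the 4 CLEAR_PS19 libraries. All PS19 libraries lay above all WT libraries, which can follow from the choice by p-value. PS19 against WT gave 1.31 (SE 0.245, edgeR adjusted p = 0.0906), which passed without WT replicate 3 (0.0390), without the third library set (0.0386), without doublets (0.0425) and without the clusters led by other classes' genes (0.0303). Trf, for the iron carrier transferrin of oligodendrocytes, was at 6.88 ± 2.87, 19.1 ± 1.07, 5.89 ± 4.51 and 18.01 ± 5.70 CPM in WT, PS19, CLEAR and CLEAR_PS19 (tau 1.501, SE 0.291, adjusted p = 0.0771). It passed without CLEAR replicate 4 (0.00735) and with the replicate block (0.041).

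Glial markers were measured in the members beside these genes. The summed level of 5 oligodendrocyte genes ran from 39.5 to 48.6 CPM in WT, 43.1 to 128 in PS19, 31.1 to 98.8 in CLEAR and 64.5 to 117 in CLEAR_PS19, with none of the 5 at 0 in all members. All 4 oligodendrocyte genes that could be tested were higher with the transgene (median 0.88), as were 3 of 3 astrocyte genes (median 0.61) and 3 of 3 microglia genes (median 0.13). Of these 10, 0 passed. The 9 microglia genes summed to 70.1 to 148 CPM in WT and 137 to 193 in PS19, but to 75.5 to 147 in CLEAR and 106 to 133 in CLEAR_PS19. The 7 astrocyte genes summed to 239 to 316 in WT against 271 to 349 in PS19, and to 218 to 284 in CLEAR against 255 to 325 in CLEAR_PS19. On the CLEAR background alone the medians were 0.11 for the 3 astrocyte genes and 0.002 for the 3 microglia genes. In all barcodes together the oligodendrocyte genes ran from 985 to 1262 CPM in WT and from 1630 to 2292 in PS19. The part of glial RNA in the values of Apoe and Trf was not tested.

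Activity-dependent genes had lower values with the transgene in the members, and none passed the test. These immediate early genes are switched on by synaptic input. Egr1 was at 8.17, 14.4 and 10.9 CPM in WT libraries, 2.19, 0.908 and 1.35 in PS19 libraries, 26.1, 9.39, 6.11 and 7.71 in CLEAR libraries and 6.66, 2.43, 0.616 and 0 in CLEAR_PS19 libraries. The PS19 libraries lay far below WT, and the CLEAR groups overlapped in 1 library of each. Within same-numbered pairs Egr1 was lower with the transgene in 7 of 7. A UMI of Egr1 was found in 9.55%, 2.79%, 13.5% and 2.55% of members, in that order of groups. The averaged tau difference was -2.42 (SE 0.471, edgeR adjusted p = 0.0771). It passed without CLEAR replicate 3 (0.0315), without CLEAR_PS19 replicate 1 (0.0174), with the replicate block (0.0175) and without the third library set (0.0345). It did not pass in the other 12 fits without 1 library (0.0518 to 0.312), among them that without CLEAR replicate 1, the highest library (-2.08, adjusted p = 0.228).

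All 9 tested genes of the activity list had a tau difference below 0, with a median of -1.10 against 0.0001 over all genes, and 0 of the 9 passed. Nr4a3, a nuclear receptor, was at 18.2 ± 14.5, 2.81 ± 2.44, 15.1 ± 7.85 and 6.27 ± 2.95 CPM in WT, PS19, CLEAR and CLEAR_PS19 (-1.75, SE 0.415, adjusted p = 0.355). The differences were -1.35 (SE 0.405) for Fosl2, -1.17 (SE 0.424) for Npas4, -1.10 (SE 0.562) for Fos and -0.82 (SE 0.283) for Nr4a1. Those of Vgf, Junb and Homer1 were smaller, at -0.61 (SE 0.252), -0.48 (SE 0.417) and -0.33 (SE 0.159). In the Sst, Vip and Reln nuclei of the same libraries Egr1 (-1.46, edgeR adjusted p = 0.0366) and Npas4 (-1.18, adjusted p = 0.0391) fell. No activity gene had a tau effect that differed between members and those nuclei after adjustment.

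**Figure D4:**
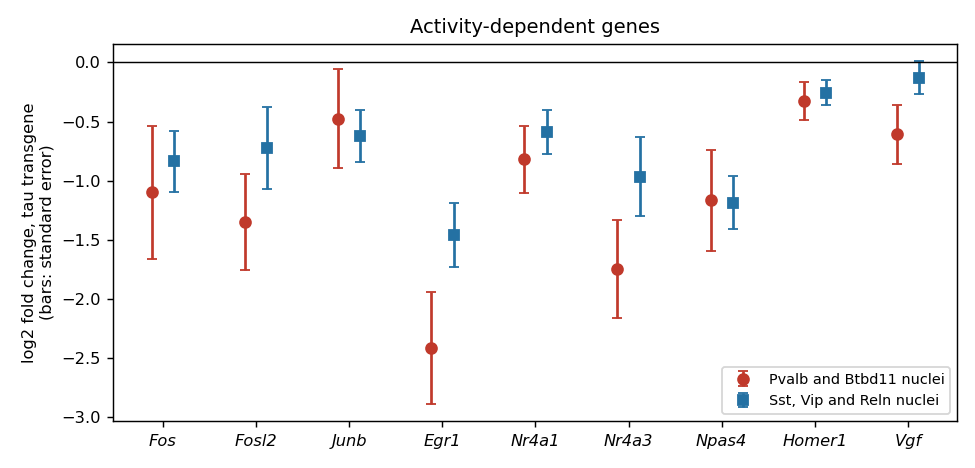
Log2 difference with the tau transgene ± SE for 9 activity-dependent genes, in members (red circles) and in Sst, Vip and Reln nuclei together (blue squares). All 9 members' values lie below 0, from -0.33 for Homer1 to -2.42 for Egr1, with wide errors.

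The single call of the averaged CLEAR effect was Atp6v1h, the target of the mutation as far as the design is known. The labels do not name it. Atp6v1h (chr1:5070018-5162529, overlapped by Rgs20 on the other strand) was at 96.2, 120 and 114 CPM in WT libraries, 135, 122 and 136 in PS19 libraries, 72.9, 68.4, 84.6 and 84.8 in CLEAR libraries and 80.6, 77.9, 78.8 and 82.7 in CLEAR_PS19 libraries. The 8 libraries with the mutation did not overlap the 6 without it. The averaged change was -0.60 on the log2 scale (SE 0.0923, edgeR adjusted p = 0.0211). On each background alone it did not pass, at -0.49 (SE 0.131, adjusted p = 0.965) without the transgene and -0.70 (SE 0.130, adjusted p = 0.0781) with it. A UMI was found in 80.4%, 82.8% and 71.2% of members of WT, PS19 and CLEAR, and in 165 of 275 members of CLEAR_PS19.

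The size of the Atp6v1h change was steady but its call was not. Leaving out 1 library gave -0.64 to -0.54, with the call lost without WT replicate 2 (adjusted p = 0.260) or 3 (0.0867), PS19 replicate 1 (0.225), 2 (0.0565) or 3 (0.0712), CLEAR replicate 1 (0.0564) or 2 (0.0544), or CLEAR_PS19 replicate 1 (0.0580) or 3 (0.0579). Without the third library set it was -0.56 (adjusted p = 0.358), and without the clusters led by other classes' genes -0.56 (0.0517). The call was also lost with library set in place of sex (0.244), with Pvalb members only (0.0927) and in males only (0.17), at -0.61 to -0.55. Sst, Vip and Reln nuclei had a like change of -0.56 (SE 0.0733, edgeR adjusted p = 0.00227), and the effects differed by -0.07 (SE 0.113). Over 12991 genes, 0 (0%) had a CLEAR effect that passed as different between members and those nuclei by edgeR. At an unadjusted p under 0.05 there were 726, where chance alone gives a share of 0.05.

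Of the V-ATPase genes, Atp6v1h alone passed. Of 18 tested subunit genes 16 were higher with the mutation, with a median of 0.11 (0.0036 over all genes), and Atp6v1h was the 1 gene that passed. Atp6v0c, for the proteolipid ring, had the largest fitted difference (0.65, SE 0.175, edgeR adjusted p = 0.503). Its CPM were 69.9, 65.0 and 43.5 in WT libraries, 45.5, 43.6 and 52.5 in PS19 libraries, 97.6, 85.9, 55.8 and 48.9 in CLEAR libraries and 139, 137, 78.2 and 43.0 in CLEAR_PS19 libraries, so the 4 highest libraries were those of the third set. Without that set 13 of 18 genes were higher and the median was 0.08.

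TFEB binds CLEAR elements built around the letters CACGTG, and promoters of V-ATPase genes were searched for them. The RefSeq promoter table (GRCm38.p6, 250 bases before to 50 after a start) had entries for 14 of the V-ATPase genes, Atp6v1h not among them, of which 4 (28.6%) held CACGTG, a motif that reads the same on both strands. Counted by promoter, 4 of their 19 entries (21.1%) held it, against 7.15% of all 32851 promoters. The first site of each is shown with 12 bases on either side, the motif in capitals (the Atp6v0b promoter holds 2), because they mark which V-ATPase promoters hold the core letters of a CLEAR element.
Atp6v0b, chr4:117887348-117887377, minus strand: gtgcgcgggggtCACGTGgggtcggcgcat
Atp6v0d1, chr8:105566050-105566079, minus strand: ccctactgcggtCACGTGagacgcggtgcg
Atp6v1a, chr16:44139373-44139402, minus strand: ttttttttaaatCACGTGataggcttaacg
Atp6v0e, chr17:26676387-26676416, plus strand: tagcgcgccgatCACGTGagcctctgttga
In the members these 4 genes had CLEAR differences of 0.19 (Atp6v0b), 0.08 (Atp6v0d1), 0.01 (Atp6v1a) and 0.10 (Atp6v0e), and 0 of them passed. A match is a description of these letters, not of TFEB binding.

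E230029C05Rik was low in the cross of both mutations, a difference that the interaction term tested. This processed transcript (chr7:89980723-90049069) has no known role and overlaps Eed, Gm44860 and Gm44861, so its counts are uncertain. It was at 42.7, 37.5 and 15.4 CPM in WT libraries, 38.3, 61.7 and 37.7 in PS19 libraries, 42.6, 49.6, 51.5 and 29.1 in CLEAR libraries and 4.44, 8.11, 6.77 and 26.5 in CLEAR_PS19 libraries. The first 3 CLEAR_PS19 libraries lay below every other library, and the fourth, a female, overlapped WT. Over all barcodes those 3 libraries also lay below every other (19.4 to 31.7 against 33.5 to 93.3 CPM). The low level was thus not particular to the members. CLEAR_PS19 against CLEAR gave -2.49 (SE 0.356, edgeR adjusted p = 0.00288), CLEAR_PS19 against PS19 gave -2.60 (SE 0.365, adjusted p = 0.00512) and the interaction -3.01 (SE 0.474, adjusted p = 0.0277).

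These calls of E230029C05Rik differed in how far they rested on single libraries. The first held in every fit without 1 library (2.01e-05 to 0.0352). The second was lost without PS19 replicate 2 (0.0962) or CLEAR_PS19 replicate 1 (0.0780), and with no sex covariate (0.0546). The interaction stayed between -3.42 and -2.70 but lost its call without WT replicate 2 (0.0695) or 3 (0.0842), PS19 replicate 2 (0.154) or 3 (0.0858), CLEAR replicate 1 (0.0538), 2 (0.0705) or 3 (0.0870), or CLEAR_PS19 replicate 1 (0.170), 2 (0.148) or 3 (0.168), and with no sex covariate (0.241). Without the third set these differences were -2.09, -2.16 and -2.60, with adjusted p-values of 0.344, 0.619 and 0.583. Bulk hippocampus held only WT and PS19 samples, so it does not bear on the cross. There PS19 against WT at 9 months gave 0.35 for this transcript (edgeR adjusted p = 0.193).

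Other genes named for their small p-values did not pass with all libraries, and separation of their libraries can follow from that choice. Rbm45, for an RNA-binding protein, was at 14.3 ± 1.23 CPM in WT and 34.6 ± 7.91 in CLEAR (1.26, edgeR adjusted p = 0.118), and at 19.9 ± 1.74 in PS19 and 26.9 ± 4.41 in CLEAR_PS19. All 8 libraries with the mutation lay above the 6 without it (22.8 to 45.6 against 12.99 to 21.6 CPM). Hsp90ab1, for a cytosolic chaperone, was at 66.3 ± 12.5, 67.2 ± 7.64, 92.8 ± 14.2 and 109 ± 12.4 CPM in WT, PS19, CLEAR and CLEAR_PS19 (0.56, SE 0.118, adjusted p = 0.268). Rtl4 was at 87.5 ± 8.48, 100, 56.0 ± 24.7 and 36.6 ± 15.4 (-0.995, SE 0.182, adjusted p = 0.106), and passed without CLEAR replicate 4 (0.00501) or CLEAR_PS19 replicate 2 (0.0419), without doublets (0.0212), in males (0.032) and with DESeq2 (0.0443). Hdac9, for a histone deacetylase, was at 320 ± 23.7 in PS19 and 176 ± 27.2 in CLEAR_PS19 (-0.86, adjusted p = 0.0723), with no overlap of the libraries (295 to 342 against 148 to 212). Hdac9 passed with DESeq2 (0.00416) and in 6 of the 14 fits without 1 library (adjusted p from 0.0163 to 0.63 over all 14).

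The remaining named genes had larger spreads or smaller differences. PS19 against WT gave 4.31 for Wdr49 (adjusted p = 0.123), -1.23 for Dnah5 (0.308) and 1.24 for Gm34623 (0.308, but 0.00214 without PS19 replicate 1) by edgeR. CLEAR_PS19 against CLEAR gave 1.82 for Sav1 (0.355). CLEAR against WT gave 3.47 for Sv2b (0.118, but 0.0189 without CLEAR replicate 1), -0.95 for Gm20754 (0.521), 0.60 for the glutamate receptor gene Grm3 (0.521) and 1.64 for Hs3st5 (0.742). CLEAR_PS19 against PS19 gave -1.15 for Apoe (0.101), which passed without WT replicate 3 (0.0491) or PS19 replicate 3 (0.0497). The same comparison gave 1.16 for Pcsk1n (0.284, but 0.029 without CLEAR_PS19 replicate 3). Over all barcodes Pcsk1n was highest in the libraries of the third set (72.4 to 122 CPM against 31.6 to 66.1 in the others). The part of the library set in its difference was not tested. The interaction was -4.40 for Syt6 (0.529), and those of Wdr49, Gm34623, Hs3st5 and Hdac9 did not pass with all libraries either.

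The genes that define these cells showed no genotype call. Kcnc1 was at 442 ± 64.3, 421 ± 54.6, 413 ± 33.2 and 452 ± 44.7 CPM in WT, PS19, CLEAR and CLEAR_PS19, and Syt2 at 112 ± 26.5, 127 ± 16.6, 108 ± 22.6 and 117 ± 5.26. The tau difference of Kcnc1 was 0.03 (SE 0.092) and that of Syt2 0.17 (SE 0.0993). Tfeb stood at 13.1 ± 3.79, 12.6 ± 3.54, 12.7 ± 7.20 and 14.3 ± 1.89, and Mitf at 208 ± 30.5, 201 ± 22.6, 219 ± 18.4 and 227 ± 42.1. Of the rule's own genes, given as a description, Pvalb was at 48.3 ± 0.713, 55.0 ± 5.17, 65.9 ± 25.2 and 71.7 ± 9.76 CPM and Btbd11 at 818 ± 163, 815 ± 13.8, 735 ± 167 and 768 ± 139.

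Tac1, for the precursor of substance P, was highest in the 4 libraries of the third set. It was at 110 and 73.8 CPM in CLEAR replicates 1 and 2 and at 78.4 and 55.2 in CLEAR_PS19 replicates 1 and 2. The other 10 libraries, 4 of them with the mutation, lay between 12.7 and 29.1. The averaged CLEAR difference was 1.11 (SE 0.316, edgeR adjusted p = 0.506), and the part of the library set in it was not tested.

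Gene lists of the functions of these cells held close to the median of all genes for tau. Of 18 tested fast-spiking and medial eminence genes 10 were higher (median 0.01), of 18 fast-spiking channel genes 6 (-0.06) and of 21 GABA synapse genes 7 (-0.06). Of 21 glutamate receptor genes 8 were higher (-0.07), of 22 transmitter release genes 5 (-0.09), of 31 lysosomal and TFEB genes 16 (0.02), of 8 perineuronal net genes 6 (0.06) and of 19 tau and microtubule genes 7 (-0.03). No gene of these lists passed, against 3 calls among all 10854. At an unadjusted p under 0.05 there were 460 genes, under the 543 expected by chance alone. Of 22 mitochondrial respiration genes 17 were higher with the transgene (median 0.09) and 0 passed. The interferon and MHC class I list, high in reactive tissue, had only 3 tested genes, all 3 higher (median 0.16).

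For the CLEAR mutation, lists of energy and chaperone genes leaned higher. Of 22 mitochondrial respiration genes 17 were higher (median 0.22), of 7 protein-folding stress genes 6 (0.49) and of 9 activity-dependent genes 9 (0.36), against a median of 0.0036 over all genes. None of these genes passed. Without the third library set these became 11 of 22 (0.02), 5 of 7 (0.20) and 0 of 8 (-0.22), so the median of the activity list changed sign. Glutamate receptor genes went from 3 of 21 higher (-0.11) to 15 of 21 (0.01). The tau difference of the activity list kept its direction without that set (0 of 8 higher, median -0.85).

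**Figure D5:**
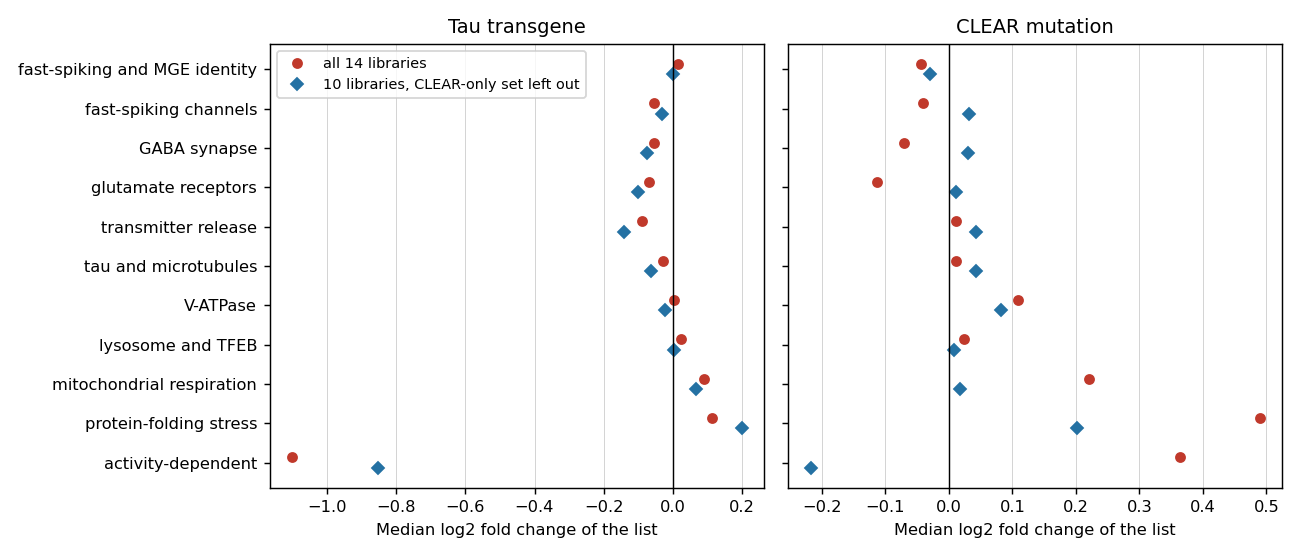
Median log2 difference of 11 gene lists in members with the tau transgene (left) and with the CLEAR mutation (right), from all 14 libraries (red circles) and from the 10 libraries without the set that holds only CLEAR and CLEAR_PS19 libraries (blue diamonds). The activity-dependent list lies at -1.10 and -0.85 for tau, while for CLEAR it moves from 0.36 to -0.22.

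In bulk hippocampus, Pvalb, Btbd11, Syt2 and Gad1 showed no call between PS19 and WT. In bulk tissue, fewer cells of a type and less RNA per cell cannot be told apart. Pvalb ran from 17.6 to 26.7 CPM in the 5 WT libraries at 9 months (median 20.9) and from 22.6 to 30.03 in the 4 PS19 libraries (median 25.9), which overlapped (0.28, SE 0.130, edgeR adjusted p = 0.168). Btbd11 had medians of 23.4 and 23.1 CPM (-0.04, adjusted p = 0.863), Syt2 of 36.1 and 35.6 (0.03, adjusted p = 0.956), and Gad1 of 435 and 349 (-0.24, adjusted p = 0.167). Across all 16133 genes 12.8% were called at 9 months and 0.0186% at 4 months. At 4 months Pvalb differed by -0.11 (SE 0.113, adjusted p = 1).

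Of the 19 tested fast-spiking and medial eminence genes, 2 were higher in bulk PS19 tissue at 9 months, among them Maf (0.49, SE 0.105), a factor gene that macrophages also express, with a list median of 0.001. That is no more than the 12.8% of all genes called in either direction (1239 higher and 821 lower of 16133). Of 20 fast-spiking channel genes 4 were lower and 0 higher (median -0.10), and of 21 GABA synapse genes 4 and 0 (median -0.17). Other lists not particular to these cells had 9 of 24 (glutamate receptors) and 6 of 22 (transmitter release) lower and 0 higher. Of 19 tau and microtubule genes 7 were lower and 1 higher, and of 22 mitochondrial respiration genes 0 were called. The median of all genes was -0.0081. Other cells also use these channel and receptor genes. Tfeb was higher in bulk PS19 tissue at 9 months (medians of 8.14 CPM without and 11.6 CPM with the transgene, a log2 change of 0.57 with SE 0.109 and edgeR adjusted p = 0.000898), while in the members its tau difference was 0.09 (SE 0.234).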

How the data were processed

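RNA was measured in nuclei (14 libraries) and bulk hippocampus (21 libraries). The authors deposited unnormalized UMI counts of each barcode (Cell Ranger 5.0.1, per the file headers) and raw read counts per gene for bulk tissue. The submitters' processing notes also list Seurat, cutadapt, STAR, featureCounts, DESeq2 and mm10, without roles; whether intron reads were counted is not given in the sources used here. Groups and sexes came from the labels. Member counts were summed per library and tested with edgeR 4.0.16 (R 4.3.3): TMM normalization, filterByExpr, quasi-likelihood test, groups plus sex, Benjamini-Hochberg adjustment, threshold 0.05. CPM are TMM-scaled unless summed over nuclei. Cell types were compared with library as a term, in libraries with 20 or more nuclei of each. Shares were tested by exact permutation of genotype within the other genotype, with 1400 (tau) and 1225 (CLEAR) relabellings. Clusters used scanpy 1.11.5 (2000 variable genes, 20 components, 20 neighbours, Leiden 0.5). DESeq2 1.42.0 was an alternative. The fits were tested on simulated counts.

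Bulk libraries held 9.63 M to 17.2 M counts and entered a single fit; replicate 2 of PS19 at 9 months was not used here. Positions came from GENCODE M21 (GRCm38), in which 32158 of 32285 gene IDs matched. Deviations of same-numbered libraries from their group means correlated at 0.136 to 0.319 (3 pairs of WT and PS19) and 0.148 to 0.238 (4 pairs of CLEAR and CLEAR_PS19), all over 0.1, so replicate numbers were taken to pair the tau comparisons; each pair shared sex and library set. Between CLEAR genotypes they ran from -0.162 to 0.141 and were not taken to pair. Libraries of the same sex and set with other numbers also correlated, at 0.185 for CLEAR replicate 2 with CLEAR_PS19 replicate 1. The highest value of all compared libraries was 0.324, for the females WT replicate 3 and CLEAR replicate 4. PS19 replicate 3 with CLEAR replicate 4 gave 0.257. CLEAR replicate 1 with CLEAR_PS19 replicate 2 gave 0.0914, WT replicate 1 with PS19 replicate 2 0.0319, and WT replicate 2 with PS19 replicate 1 0.095. Whether the number pairs libraries beyond shared sex and set was not tested, and the main tests did not use the pairing. No 2 nuclei libraries agreed within sampling noise. Members, lists and tests were chosen with earlier results of these data known. Named genes are the called genes of each comparison, or the 6 with the smallest p where fewer passed, with Prnp, Mapt, Atp6v1h and the rule's genes; between cell types, the 8 largest folds each way with 50 CPM or more in the higher type, and the list genes. The genes used as examples from other lists were chosen after their values were seen. Alternatives were DESeq2, no filter on low counts, no sex covariate, library set in place of sex, a replicate block, no doublets, members with Pvalb only, thinning to 4000 UMIs and leaving out each library. Males only, omission of the third library set and omission of the 2 clusters led by other classes' genes were added after the data were seen.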

Additional observations from a re-analysis of the deposited data

Results flagged for a closer look

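Of 92 groups of 4 to 10 libraries examined, 7 held a library that stood apart from the rest by Dixon's test, and chance alone gives about 1 in 20. In the members, CLEAR replicate 4 had 32.6 CPM of Wdr49, where the other CLEAR libraries had 0.872 to 1.38. CLEAR replicate 1 had 26.1 CPM of Egr1 against 6.11 to 9.39 in the other 3, and 1.38 CPM (1 UMI) of Gm43049, which was at 0 in the others. CLEAR replicate 2 had 42.9 CPM of Gm20754 against 85.3 to 89.0. Among CLEAR_PS19 libraries, replicate 4 had 26.5 CPM of E230029C05Rik against 4.44 to 8.11, and replicate 3 had 85.6 CPM of Grm3 against 101 to 103. In bulk WT tissue at 9 months, 1 library had 97.6 CPM of Erbb4 against 83.2 to 87.3 in the other 4.

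Effects that passed a test of their difference between groups were those of E230029C05Rik and Bmpr1b. For E230029C05Rik, the tau effect depended on the CLEAR genotype, with an interaction of -3.01 (SE 0.474, edgeR adjusted p = 0.0277). For Bmpr1b, the tau effect in members exceeded that in Sst, Vip and Reln nuclei by 4.80 (SE 0.776, edgeR adjusted p = 0.0206), on 3, 11, 2 and 19 UMIs in members of WT, PS19, CLEAR and CLEAR_PS19. Bmpr1b was too low for the members' own fit and entered this test through its counts in the other interneurons. Its call was lost without doublets, without the clusters led by other classes' genes and without any 1 of 7 libraries.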

How the results depend on the processing

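No result changed direction past its threshold. Of the values of counts and shares under an alternative, 283 held and 100 moved, and of those of single genes 3136 kept their side of the threshold, 93 gained and 59 lost a call. With no filter on low counts the calls were 76 for PS19 against WT (2 as reported), 28 for CLEAR_PS19 against CLEAR (4), 44 for CLEAR against WT (0), 62 for CLEAR_PS19 against PS19 (1), 71 for tau averaged (3), 88 for CLEAR averaged (1), 34 for the interaction (1), and 48 and 60 for the tau and CLEAR differences between interneuron types (1 and 0). PS19 against WT gave 1 with no sex covariate, 1 with Pvalb members only and 4 without the third library set. CLEAR_PS19 against CLEAR gave 2 without that set. CLEAR against WT gave 1 with DESeq2, 1 with Pvalb members only, 1 in males only and 3 without the set. CLEAR_PS19 against PS19 gave 2 with DESeq2, 0 with no sex covariate, 3 without doublets, 0 without the set and 2 without the 2 clusters. Tau averaged gave 6 with library set in place of sex, 7 in males and 18 without the set. CLEAR averaged gave 2 with DESeq2, 0 with library set in place of sex, 2 without doublets, 0 with Pvalb members only and 2 in males (neither of them Atp6v1h). The interaction gave 2 with DESeq2, 0 with no sex covariate, 2 in males and 0 without the set. The tau difference between types gave 0 without doublets and 0 without the clusters, and the CLEAR difference 1 without the clusters. Bulk tissue at 4 months gave 11 with DESeq2 (3). The cause of these shifts was not tested.

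Replicate numbers were taken to pair the nuclei libraries in the tau comparisons but not in the CLEAR comparisons. Each pair also shared sex and library set. The replicate block, in which a number is the same level in all 4 groups, gave 1 call for PS19 against WT, 64 for CLEAR against WT, 58 for CLEAR_PS19 against PS19, 9 for tau averaged, 326 for CLEAR averaged and 5 in bulk tissue at 4 months; replicates 1 and 2 of both CLEAR groups are the third library set. In the tau comparisons it changed no call of a named gene other than those of Gm32754, Unc5c, Trf and Egr1.

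Leaving out 1 library gave 1 to 3 calls for PS19 against WT, 3 to 5 for CLEAR_PS19 against CLEAR, 0 to 1 for CLEAR against WT, 0 to 7 for CLEAR_PS19 against PS19 (7 without PS19 replicate 3), 3 to 6 for tau averaged (6 without CLEAR replicate 3), 0 to 3 for CLEAR averaged (3 without CLEAR_PS19 replicate 4), 0 to 2 for the interaction, 0 to 2 and 0 to 3 for the differences between types, 1185 to 2110 in bulk tissue at 9 months (1185 without PS19 replicate 5) and 3 to 4 at 4 months.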

Other observations

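The clusters of members were spread unevenly over the libraries. The Cdh7 cluster held from 6.15% of members in WT replicate 1 to 35.6% in CLEAR replicate 2, holding 25 WT, 54 PS19, 46 CLEAR and 71 CLEAR_PS19 nuclei. Summed CPM of the 11 CGE genes in the members ran from 986 to 1532 in WT and 1078 to 1280 in PS19, but from 95 to 2054 in CLEAR and 284 to 1257 in CLEAR_PS19.

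Pvalb was not exclusive to the members among GABA nuclei. Of 652 GABA nuclei with a Pvalb UMI, 46 also reached the Sst limit of 3 UMIs and 53 had 5 or more UMIs of Reln, and these stood outside the rule.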
